A study of Mus musculus with 38 samples.

Results

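The genes described here are 32 genes of the amino acid and stress programme that is driven by the transcription factor ATF4. They were taken by gene symbol from a list that was chosen with earlier results of these data known. Shares over all genes are therefore set beside their counts as a description and not as a test. The list holds 5 transcription factors, 6 genes of serine and one-carbon synthesis and 8 amino acid transporters. It also holds 6 further enzymes of amino acid synthesis and 7 genes of feedback, signalling or secretion. All 32 were found, among 55487 genes in the tables of the culture and brain experiments and among 57126 genes in the tables of the tumour and miRNA experiments. The series sequenced RNA from 38 mouse libraries to follow how exosomes, small vesicles released by cells, of insulin resistant fat cells act on 4T1 cells, a line from a mouse mammary tumour that serves as a triple-negative breast cancer model.

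The culture experiment held 3 libraries each of 4T1 cells without exosomes (untreated), with exosomes of insulin sensitive 3T3-L1 adipocytes (IS) and with exosomes of insulin resistant 3T3-L1 adipocytes (IR), the exosomes being present for 72 h. The brain experiment held 5 control, 5 IS and 5 IR libraries of a clonogenic assay on brain, in which cells taken from a tissue grow as colonies. The tumour experiment held 4 control and 5 IR libraries of primary 4T1 tumours. In the miRNA experiment 2 libraries were titled as a scrambled control and 3 as miR-145a-3p, a microRNA arm, in 4T1 cells. By their labels all groups rest on a single tumour line, but epithelial markers were very low in the brain libraries, as given below. How much of the brain RNA came from 4T1 cells was not tested. The labels used here give no host strain, sex or age for the brain and tumour samples. They also do not say what IS and IR stand for there beyond the group name. The titles number biological replicates but name no separate cultures or animals, and the p values therefore reflect the library-to-library spread alone, which may be technical.

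ATF4 is made when the translation factor eIF2 is phosphorylated, for example during amino acid shortage, endoplasmic reticulum stress or haem shortage, which lowers most protein synthesis but raises translation of the Atf4 messenger. ATF4 then binds composite C/EBP-ATF elements, together with partners such as C/EBP proteins, and raises genes that import and make amino acids, charge transfer RNAs and, when stress lasts, feed back on the pathway or favour cell death. In tumours the programme is known for supplying serine, one-carbon units, asparagine and cystine to dividing cells.

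The core of the element, written TGATGNAA (its reverse is TTNCATCA, both strands searched), was looked for in the RefSeq promoters of the mouse build GRCm38.p6, from 250 bases before to 50 bases after each start. Of the 32 genes, 28 had a promoter entry. The core lay in the promoters of 8 of these 28 genes, beside 4.51% of all 27025 genes with an entry. The windows around the matches that lie wholly before the start are printed here because these genes did not move alike. Each is given 5′ to 3′ on the strand of its gene, with the core in capitals.
Slc7a11, chr3:50443623-50443709, minus strand: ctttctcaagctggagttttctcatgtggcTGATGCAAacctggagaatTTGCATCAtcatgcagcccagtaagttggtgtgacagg
Asns, chr6:7693210-7693262, minus strand: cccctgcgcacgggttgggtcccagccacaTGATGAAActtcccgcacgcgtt
Chac1, chr2:119351019-119351086, plus strand: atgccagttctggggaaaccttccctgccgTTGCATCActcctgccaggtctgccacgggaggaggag
Nupr1, chr7:126625543-126625610, minus strand: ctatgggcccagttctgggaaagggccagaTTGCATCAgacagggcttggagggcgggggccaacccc
Pycr1, chr11:120643814-120643881, minus strand: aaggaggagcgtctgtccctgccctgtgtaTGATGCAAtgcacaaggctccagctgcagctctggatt
Fgf21, chr7:45615592-45615659, minus strand: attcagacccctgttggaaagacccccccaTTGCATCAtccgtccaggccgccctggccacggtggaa
The Slc7a11 window holds the core on both strands, the first base of the pair lying 66 and 47 bases before the start. The other cores in these windows began 23 bases (Asns), 193 bases (Chac1), 110 bases (Nupr1), 103 bases (Pycr1) and 139 bases (Fgf21) before the start. In Slc1a4 the core spanned the start and in Trib3 it lay after it, and those windows are not shown. A match says only that these letters are present.

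Depth and cell content bear on what follows. Library totals were 8455412 to 12785398 counts in culture, 8790616 to 13272583 in brain, 17392887 to 21909370 in the tumours and 24972592 to 32637552 in the miRNA experiment. Levels are CPM, each count divided by the scaled library total and brought to a common scale within each experiment. Of the 32 genes, 31 passed the filter on low counts in culture, tumour and miRNA libraries and 32 in the brain libraries, the exception being Fgf21. Markers of mammary epithelium summed to 3741 to 3747 CPM in untreated culture, 2780.5 to 2847 with IS and 3271 to 3338 with IR exosomes. Of the other cell types' markers there, the fibroblast set summed to 12.1 to 15.5 CPM untreated and 22.9 to 31.7 CPM with either exosome, without overlap. That sum was nearly all Pdgfra, with Col3a1 and Lum at 0 in every library, and its part in the culture results was not tested. The oligodendrocyte and neuron set summed to 27.5 to 36.5 CPM, nearly all Mbp, the macrophage and microglia set to 10.6 to 14.3 CPM, and every other set to at most 1.38 CPM. The brain libraries, labelled as 4T1 cells, reached only 121 to 256 CPM for the same epithelial genes, and Epcam, a defining epithelial gene, stayed between 0.279 and 2.91 CPM. In all bulk libraries fewer cells of a type and less RNA per cell cannot be told apart. In the miRNA experiment the libraries titled scramble carry library names of the microRNA and those titled miR-145a-3p carry names of a scrambled RNA, so each direction there depends on the titles. The plot of fold changes across the 8 comparisons gives all genes at once.

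**Figure D1:**
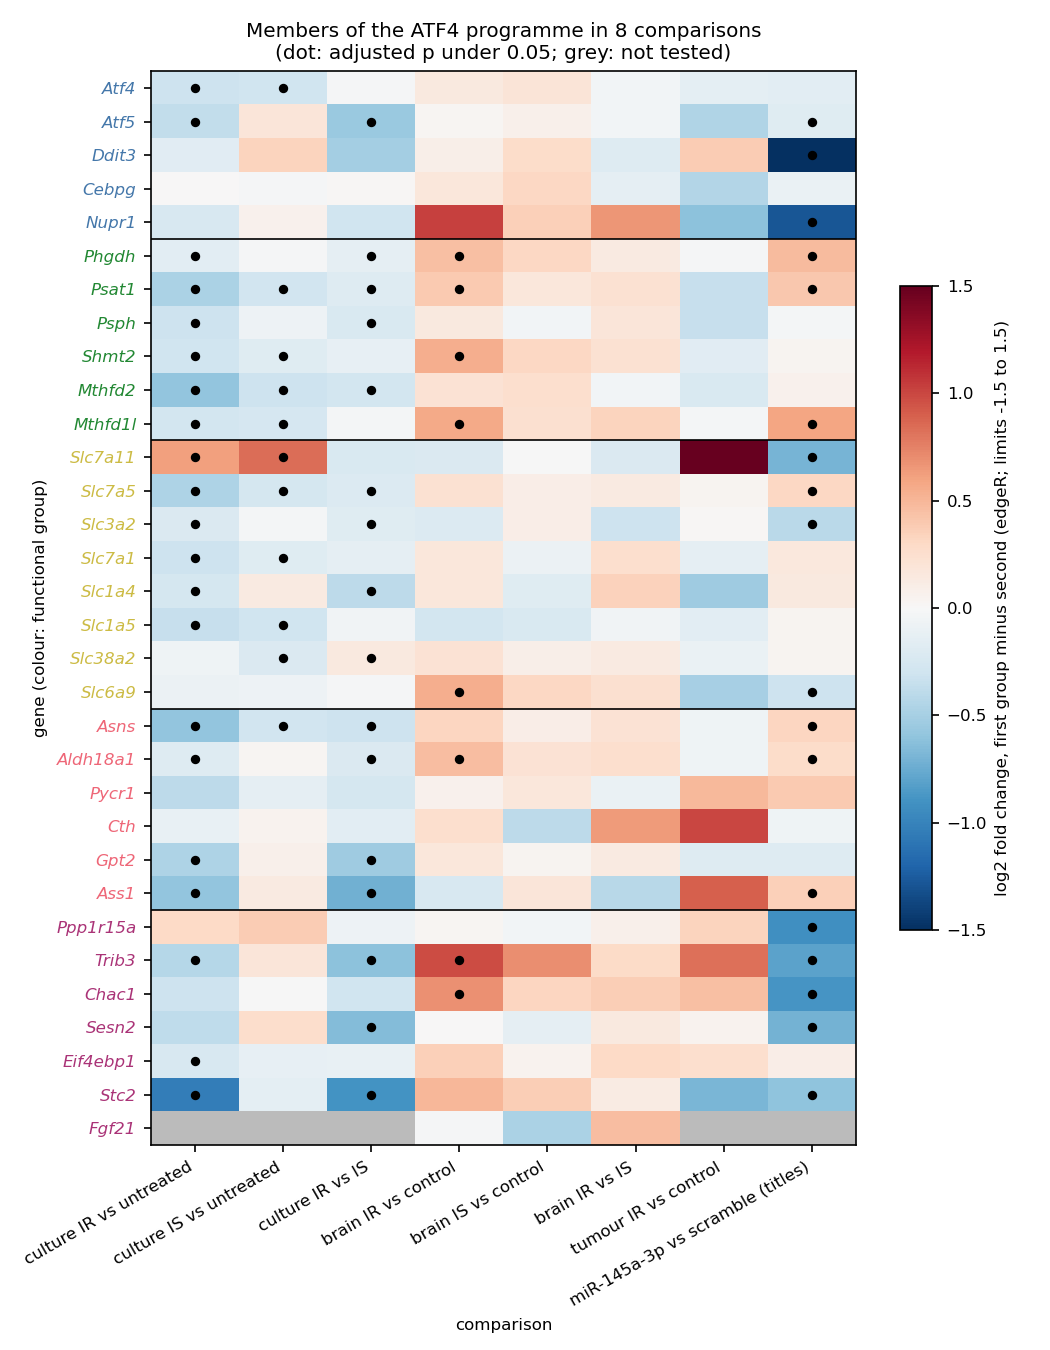
Log2 fold change of each of the 32 genes (rows, coloured by functional group) in the 8 comparisons (columns, first group minus second), on a scale cut at -1.5 and 1.5, with a dot where the edgeR adjusted p was under 0.05 and grey where the gene was not tested. In the first column 20 genes carry a dot on the blue side and Slc7a11 alone on the red side, and the brain IR column holds 8 dots, all on the red side.

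Exosomes of insulin resistant adipocytes were followed in culture by lower RNA of most of the programme. Against untreated cells 20 of 31 tested genes fell and 1 rose, where 6.9% of all 10888 genes tested were called lower and 6.67% higher. All 6 serine and one-carbon genes fell, with 5 of 8 transporters, 4 of 6 further enzymes, 3 of 6 tested feedback and secreted genes, and Atf4 and Atf5 among the factors. Falls were of modest size, the median over the 31 genes being -0.31 on the log2 scale beside 0.00 over all genes, and 28 of 31 genes had a negative sign. The largest fall by fold was in Stc2 (2.06-fold) and the single rise in Slc7a11 (1.54-fold). Groups did not overlap for 25 of the 31 genes, beside 30.2% of all genes.

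Atf4 itself (ENSMUSG00000042406) stood at 246, 241 and 248 CPM in untreated cells, at 204, 193 and 199.5 CPM with IS exosomes and at 190.3, 200.3 and 200.2 CPM with IR exosomes. Both exosome groups lay below every untreated library, and overlapped each other. The fall was 1.24-fold with IR (log2 -0.32 ± 0.04 SE, adjusted p = 1.32e-05) and 1.23-fold with IS (log2 -0.30 ± 0.04 SE, adjusted p = 2.02e-05). Atf5, a relative of ATF4 under the same translational control, read 29.0, 30.5 and 31.0 CPM untreated, 34.8, 34.4 and 33.6 CPM with IS and 23.3, 22.8 and 23.8 CPM with IR. It was thus lowest with IR and highest with IS, without overlap. The IR fall passed against untreated cells (1.29-fold, adjusted p = 0.00193) and against IS (1.47-fold, adjusted p = 0.000217), and the IS difference from untreated did not (log2 0.18, adjusted p = 0.071). Ddit3, which encodes the death-linked factor CHOP, was at 4.45, 6.06 and 6.35 CPM untreated, at 6.66, 8.22 and 6.68 CPM with IS and at 6.38, 3.63 and 5.04 CPM with IR, and was called in none of the 3 culture comparisons. Cebpg, the dimer partner of ATF4, and Nupr1, a small stress-induced nuclear protein, were also not called, with log2 differences of 0.01 and -0.24 between IR and untreated cells.

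In serine synthesis the clearest fall was in Psat1, the transaminase of the second step. It read 497, 491 and 520.2 CPM untreated, 414, 416 and 411 CPM with IS and 355, 365 and 367 CPM with IR. The 3 groups were stacked without overlap, IR being 1.39-fold below untreated cells (log2 -0.47 ± 0.03 SE, adjusted p = 7.71e-08). Mthfd2, the mitochondrial folate dehydrogenase, followed the same order, with 119, 119 and 114 CPM untreated, 94.8, 91.3 and 96.0 CPM with IS and 74.9, 77.3 and 80.2 CPM with IR, a 1.51-fold fall from untreated to IR (adjusted p = 3.12e-07). Shmt2, which moves a carbon from serine to folate in mitochondria, was at 383, 365 and 377 CPM untreated, 337, 324 and 331 CPM with IS and 306, 288 and 320.3 CPM with IR. Its IR level was below untreated (1.23-fold, adjusted p = 8.73e-05), while IR against IS missed the threshold (adjusted p = 0.0987). Mthfd1l, which releases formate, fell alike in both groups, from 154, 157 and 162 CPM to 126, 137 and 135 CPM with IS and 127, 126 and 139 CPM with IR. Phgdh, the entry enzyme, and Psph, the last step, fell with IR (1.12-fold, adjusted p = 0.00276, and 1.24-fold, adjusted p = 0.00306) and were not called with IS.

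Among transporters Slc7a5, the large neutral amino acid exchanger, was at 309, 284 and 317 CPM untreated, 251, 252 and 259 CPM with IS and 227, 213 and 219 CPM with IR. It fell 1.38-fold with IR (log2 -0.47 ± 0.04 SE, adjusted p = 1.1e-06), and its heavy-chain partner Slc3a2 fell 1.16-fold (adjusted p = 0.00388). Slc7a1, the cationic amino acid transporter, was at 209, 212 and 211 CPM untreated and at 161, 169 and 181 CPM with IR, a 1.24-fold fall (adjusted p = 9.52e-05). The glutamine carrier Slc1a5 went from 191, 197 and 190.5 CPM untreated to 155, 159 and 157 CPM with IS and 160.0, 138 and 158 CPM with IR (IR 1.27-fold below untreated, adjusted p = 0.000113). Slc7a11, the cystine importer whose promoter window holds the core on both strands, went the other way. It was at 10.4, 9.36 and 8.86 CPM untreated, at 17.2, 17.5 and 16.7 CPM with IS and at 15.3, 15.0 and 13.6 CPM with IR. Both exosome groups lay above every untreated library, by 1.79-fold for IS (log2 0.84 ± 0.11 SE, adjusted p = 3.68e-05) and by 1.54-fold for IR (log2 0.62 ± 0.11 SE, adjusted p = 0.00105). Slc1a4, another neutral amino acid carrier, fell 1.2-fold with IR (adjusted p = 0.0272), whereas Slc38a2 and the glycine carrier Slc6a9 were not called there.

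Asns, the asparagine synthetase, was at 144, 145 and 142 CPM untreated, at 114, 122 and 117 CPM with IS and at 90.8, 94.6 and 99.7 CPM with IR. The groups were stacked without overlap, and IR was 1.51-fold below untreated (log2 -0.59 ± 0.05 SE, adjusted p = 2e-07). Ass1, which makes the precursor of arginine, was at 45.6, 50.0 and 42.3 CPM untreated, 47.9, 51.9 and 51.2 CPM with IS and 31.4, 28.9 and 31.0 CPM with IR. Only the IR libraries stood low for Ass1, 1.51-fold below untreated (adjusted p = 2.56e-05) and 1.65-fold below IS (log2 -0.72 ± 0.07 SE, adjusted p = 2.94e-05). Gpt2, the mitochondrial alanine transaminase, had the same layout at 21.4, 23.7 and 23.3 CPM untreated, 26.0, 23.9 and 22.4 CPM with IS and 17.2, 15.1 and 17.5 CPM with IR (1.37-fold below untreated, adjusted p = 0.00353). Aldh18a1, which starts proline synthesis, fell 1.14-fold with IR (adjusted p = 0.0181), and Pycr1, its last step, and Cth, which makes cysteine, were not called.

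In the feedback group Trib3, a pseudokinase that restrains ATF4 signalling, was at 12.9, 12.6 and 13.0 CPM untreated, 15.1, 15.0 and 13.7 CPM with IS and 10.4, 8.23 and 10.0 CPM with IR. It was 1.35-fold lower with IR than untreated (adjusted p = 0.0252) and 1.53-fold lower than with IS (adjusted p = 0.00534). Stc2, a secreted glycoprotein, read 5.66, 5.62 and 4.47 CPM untreated, 5.44, 4.69 and 4.04 CPM with IS and 2.85, 1.59 and 3.21 CPM with IR, a 2.06-fold fall from untreated to IR on few counts (adjusted p = 0.00809). Eif4ebp1, a repressor of cap-dependent translation, read 101, 94.7 and 95.6 CPM untreated and 81.3, 86.5 and 78.0 CPM with IR (1.19-fold, adjusted p = 0.00917). Chac1, which degrades glutathione, was at 11.5, 11.3 and 11.1 CPM untreated and 8.94, 7.79 and 10.7 CPM with IR without passing (adjusted p = 0.158). Ppp1r15a, which directs the phosphatase for eIF2, and Sesn2, a leucine sensor, were not called against untreated cells. Fgf21, a secreted hormone, had no count in any untreated library and at most 0.311 CPM with exosomes.

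**Figure D2:**
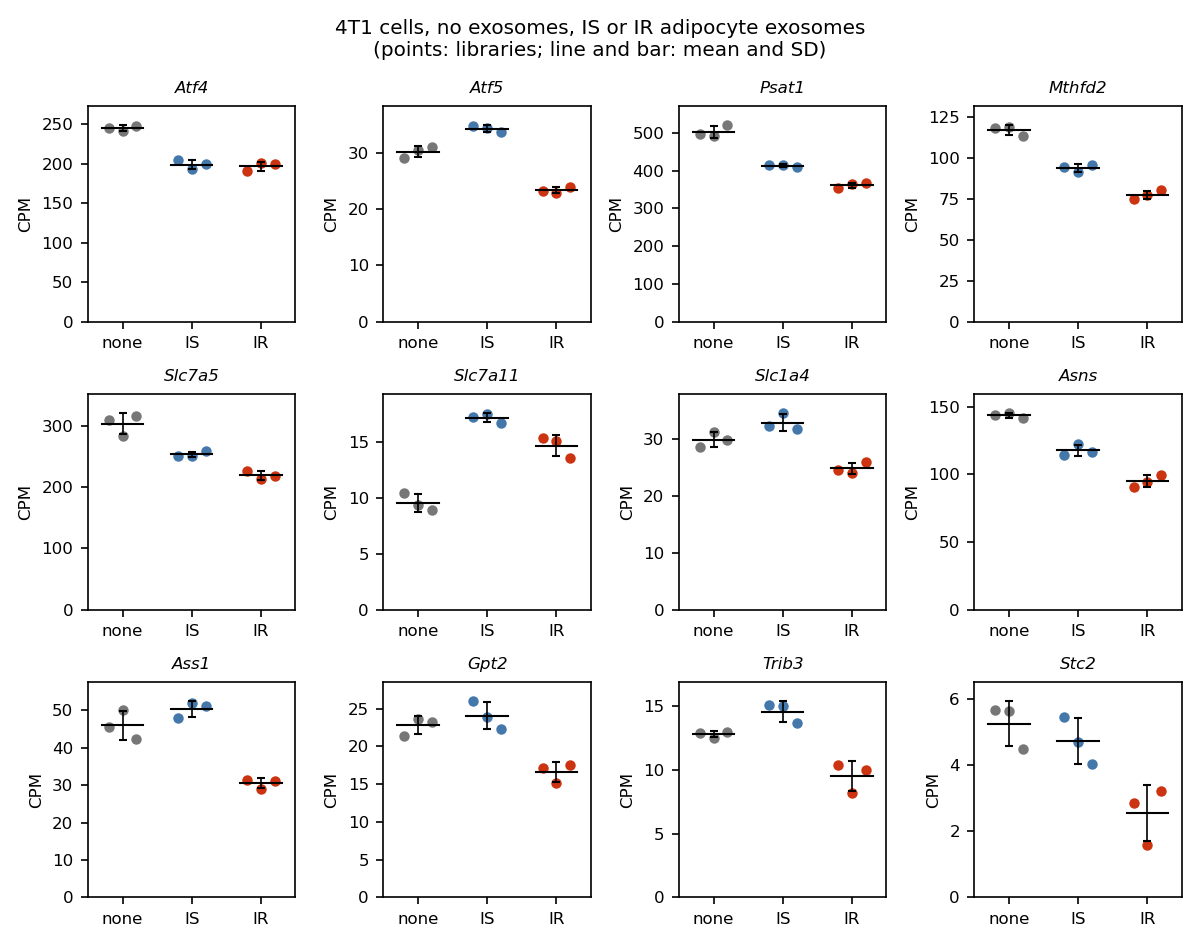
CPM of 12 genes in untreated 4T1 cells (none) and with IS or IR adipocyte exosomes. Points are the 3 libraries of a group, the line and bar their mean and SD, and axes start at 0. Psat1, Mthfd2, Slc7a5 and Asns step down from untreated to IS to IR, Atf5, Ass1, Gpt2, Trib3 and Slc1a4 are low only with IR, and Slc7a11 is above untreated in both exosome groups.

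Exosomes of insulin sensitive adipocytes moved fewer of these genes. Against untreated cells 10 of 31 fell and 1 rose where 9.32% of all genes were called lower, 9.97% higher and 19.3% in all. The falls were in Atf4, Psat1, Shmt2, Mthfd2, Mthfd1l, Slc7a5, Slc7a1, Slc1a5, Slc38a2 and Asns, and the rise in Slc7a11. The median over the 31 genes was -0.03 on the log2 scale beside 0.00 over all genes. Psat1 was 1.22-fold lower (adjusted p = 2.44e-05), Mthfd2 1.24-fold (adjusted p = 0.000224) and Asns 1.22-fold (adjusted p = 0.000366). Slc38a2, a sodium-coupled neutral amino acid transporter, was at 348, 337 and 336 CPM untreated, at 297, 294 and 290.5 CPM with IS and at 329, 319 and 328 CPM with IR, and was 1.16-fold lower with IS (adjusted p = 0.000348). None of the 6 tested feedback and secreted genes was called. The groups did not overlap for 17 of the 31 genes, beside 36.8% of all genes.

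Set directly against each other, the IR exosomes left 15 of 31 genes lower and 1 higher than the IS exosomes, where 3.45% of all genes were called lower, 2.82% higher and 6.27% in all. The lower genes were Atf5, Phgdh, Psat1, Psph, Mthfd2, Slc7a5, Slc3a2, Slc1a4, Asns, Aldh18a1, Gpt2, Ass1, Trib3, Sesn2 and Stc2, and the higher one was Slc38a2 (1.11-fold, adjusted p = 0.0173). This comparison shares its libraries with the other 2, so its values are set beside theirs and not counted as support for them. Asns was 1.24-fold lower (adjusted p = 0.00156), Mthfd2 1.21-fold (adjusted p = 0.00331), Slc7a5 1.16-fold (adjusted p = 0.00983), Slc1a4 1.32-fold (adjusted p = 0.00443) and Gpt2 1.45-fold (adjusted p = 0.00281). Phgdh, at 619, 614 and 633 CPM untreated, was at 616, 610.4 and 612 CPM with IS and 542, 560.1 and 568 CPM with IR, so only IR stood low (1.1-fold below IS, adjusted p = 0.0173). Slc1a4 was at 32.3, 34.5 and 31.8 CPM with IS and 24.6, 24.1 and 26.0 CPM with IR. Sesn2 was at 8.69, 10.6 and 7.61 CPM with IS and 5.3, 5.4 and 6.24 CPM with IR, and Slc3a2 at 177, 177 and 162 CPM with IS and 155, 151 and 148 CPM with IR. Atf4 did not differ beyond its spread (log2 -0.02 ± 0.04 SE, adjusted p = 0.844).

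Ordered by level, 5 of 31 genes (Asns, Mthfd2, Psat1, Shmt2 and Slc7a5) were highest untreated, lower with IS and lowest with IR, with no overlap between neighbours, beside 1.18% of all genes. In 11 genes (Aldh18a1, Ass1, Atf5, Gpt2, Phgdh, Psph, Pycr1, Slc1a4, Slc3a2, Stc2 and Trib3) every IR library was below every other library while IS was not below untreated without overlap, beside 3.17% of all genes. In 6 genes (Atf4, Eif4ebp1, Mthfd1l, Slc1a5, Slc38a2 and Slc7a1) every untreated library was above all exosome libraries, but IS was not above IR without overlap. That layout held for 7.79% of all genes. Slc7a11 and Ppp1r15a had every untreated library below the rest, which held for 8.8% of all genes. The summed level of the 32 genes was 3891 to 3979.7 CPM untreated, 3516 to 3551 CPM with IS and 3171 to 3279 CPM with IR. Leaving out IS 1 cut the number of genes lower with IR than with IS from 15 to 9, and the Slc38a2 rise was lost without IS 2, IS 3 or IR 3. Sesn2 lost its call against IS in 5 of the 6 fits without a single library (adjusted p up to 0.132). Slc3a2, Psph and Stc2 lost theirs in 4 of the 6 (adjusted p up to 0.109, 0.171 and 0.139), Phgdh in 2 and Aldh18a1 in 1. Slc1a4, Aldh18a1 and Trib3 lost their call against untreated cells when single libraries were left out (adjusted p up to 0.0981, 0.057 and 0.116).

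Genes around the programme were read from a list of 46, of which 38 were tested in culture. With IR exosomes 16 of the 38 fell and 3 rose, beside 6.9% of all genes called lower and 6.67% higher. With IS exosomes 15 fell and 4 rose, beside 9.32% lower and 9.97% higher. Between IR and IS 7 were lower and 1 higher with IR, beside 3.45% lower and 2.82% higher. The cytosolic aminoacyl-tRNA synthetases with the tRNA exporter Xpot all had a negative sign with IR exosomes, 13 of 13, and 11 fell. Tars and Mars1, which charge tRNAs with threonine and methionine, fell 1.25-fold and 1.28-fold (adjusted p = 6.44e-06 for both). With IS exosomes 9 of the 13 fell, Cars by 1.29-fold (adjusted p = 7.54e-05) and Tars by 1.19-fold (adjusted p = 9.03e-05), and 5 were lower with IR than with IS. The eIF2 kinases and phosphatase genes were mostly not called with IR (1 of 6 rose). Cebpb, a C/EBP partner of ATF4, rose from 129 ± 3.6 to 232 ± 8.4 CPM with IR (SD, n = 3, 1.8-fold, adjusted p = 1.14e-09) and to 220 ± 12 CPM with IS (1.71-fold, adjusted p = 3.87e-09). Jdp2, which represses at ATF sites, and Got1, the cytosolic aspartate transaminase, were lower with IR than with IS (1.41-fold, adjusted p = 0.00252, and 1.21-fold, adjusted p = 0.00527), as was the alanine tRNA synthetase Aars (1.14-fold, adjusted p = 0.0104).

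In the brain clonogenic cultures the genes that moved went up. IR cultures were higher than control cultures in 8 of 32 genes and lower in 0, where 6.45% of all 12924 genes tested were called higher and 5.27% lower by edgeR. The 8 were Phgdh, Psat1, Shmt2 and Mthfd1l of serine and one-carbon synthesis, the glycine carrier Slc6a9, Aldh18a1 of proline synthesis, and Trib3 and Chac1 of the feedback group. The largest of these rises was in Trib3, 1.97-fold. The median over the 32 genes was 0.19 on the log2 scale beside 0.00 over all genes, and 27 of 32 had a positive sign. At an unadjusted p under 0.05, 14 of the 32 genes passed, beside 26% of all genes. IR and control did not overlap for 11.8% of all genes.

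Trib3 was at 13.8, 10.6, 15.2, 10.6 and 12.7 CPM in control, at 21.9, 28.6, 16.2, 15.1 and 19.8 CPM in IS and at 23.6, 17.9, 38.6, 20.2 and 23.5 CPM in IR cultures. IR and control did not overlap (log2 0.98 ± 0.21 SE, adjusted p = 0.00634). Chac1 was at 28.0, 26.3, 34.9, 30.8 and 27.6 CPM in control, 38.5, 53.2, 32.0, 33.3 and 27.1 CPM in IS and 41.6, 38.3, 71.7, 41.6 and 44.2 CPM in IR cultures. Its groups did not overlap either, and IR was 1.61-fold higher (adjusted p = 0.0236), with the third IR culture far above the rest.

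Psat1 read 86.5, 80.2, 81.7, 77.6 and 85.4 CPM in control, 96.0, 101, 90.9, 88.4 and 86.9 CPM in IS and 105, 113, 125, 96.6 and 102 CPM in IR cultures. It was higher in IR by 1.31-fold (log2 0.39 ± 0.07 SE, adjusted p = 0.00251), every IR culture being above every control. Mthfd1l read 22.3, 15.2, 18.1, 17.9 and 18.3 CPM in control, 23.1, 26.1, 19.4, 17.1 and 22.5 CPM in IS and 30.6, 31.6, 27.0, 22.5 and 24.2 CPM in IR cultures, again without overlap of IR and control (1.48-fold, adjusted p = 0.0113). Phgdh read 92.2, 83.9, 101, 79.3 and 89.5 CPM in control, 121, 115, 104, 105 and 109 CPM in IS and 115, 95.0, 159.8, 131 and 109 CPM in IR cultures. IR and control overlapped for Phgdh (1.37-fold, adjusted p = 0.016) and for Shmt2 (1.45-fold, adjusted p = 0.0341). Shmt2 was at 55.2 to 66.4 CPM in control and at 66.4 to 126 CPM in IR cultures, the lowest IR culture meeting the highest control.

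Slc6a9 was at 27.0, 29.6, 29.2, 23.8 and 23.7 CPM in control, 32.0, 39.0, 34.7, 27.6 and 31.1 CPM in IS and 33.3, 32.0, 53.2, 41.2 and 35.2 CPM in IR cultures (IR 1.47-fold above control, adjusted p = 0.0147). Aldh18a1 was at 38.5, 32.6, 33.0, 31.0 and 30.3 CPM in control, 37.5, 46.4, 36.4, 34.6 and 37.0 CPM in IS and 43.2, 46.5, 55.2, 42.3 and 40.7 CPM in IR cultures. No IR culture of either gene overlapped control, and Aldh18a1 was 1.38-fold higher in IR (adjusted p = 0.00784).

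The other genes were not called in IR against control. Atf4 was at 208, 216, 220.3, 205 and 223 CPM in control, 279.5, 237, 227, 239 and 239 CPM in IS and 224, 224, 263, 245 and 233 CPM in IR cultures. All IS and IR values were above control, by 1.14-fold for IS (adjusted p = 0.107) and 1.11-fold for IR (adjusted p = 0.168), neither past the threshold. Atf5 was at 176, 149, 216, 175 and 166 CPM in control, 207, 199, 175, 165 and 180.2 CPM in IS and 185, 130.2, 208, 202 and 176 CPM in IR cultures. Ddit3 was at 30.8, 31.2, 43.1, 35.5 and 35.7 CPM in control, 53.0, 44.2, 41.4, 37.7 and 37.8 CPM in IS and 38.1, 29.5, 41.8, 36.9 and 41.6 CPM in IR cultures. The groups overlapped for both genes.

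Asns read 62.8, 56.3, 68.7, 55.3 and 60.3 CPM in control, 68.4, 76.3, 66.5, 55.3 and 57.8 CPM in IS and 74.8, 59.6, 99.7, 74.4 and 69.7 CPM in IR cultures (IR against control, adjusted p = 0.0947). Mthfd2 read 38.4, 27.5, 33.6, 29.8 and 30.4 CPM in control, 38.9, 42.3, 39.0, 35.0 and 35.6 CPM in IS and 36.2, 30.5, 47.5, 35.9 and 35.0 CPM in IR cultures. Slc7a5 read 32.8, 34.9, 44.4, 35.0 and 39.4 CPM in control, 36.2, 44.4, 41.1, 36.6 and 41.2 CPM in IS and 47.7, 33.0, 47.0, 49.3 and 41.4 CPM in IR cultures. These 3 genes, which fell in culture, had overlapping groups here.

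Slc7a11 read 193, 173, 129, 145 and 137 CPM in control, 107, 191, 169, 175 and 134 CPM in IS and 141, 146, 101, 152 and 130.1 CPM in IR cultures (IR against control, log2 -0.21 ± 0.15 SE, adjusted p = 0.412). Ass1 read 47.7, 55.3, 40.0, 40.6 and 47.4 CPM in control, 44.6, 49.2, 57.5, 44.2 and 65.8 CPM in IS and 59.3, 36.4, 22.9, 43.5 and 33.5 CPM in IR cultures (adjusted p = 0.467). Nupr1 spread widely, at 20.3 to 31.7 CPM in control and 21.4 to 95.7 CPM in IR cultures (adjusted p = 0.0662). Slc3a2, at 324 to 359 CPM in control, was at 266 to 315 CPM in IR cultures, which lay below every control without passing (adjusted p = 0.141).

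IS cultures gave no call against control by edgeR (0 of 32 genes in either direction, where 3.37% of all genes were called higher, 3.1% lower and 6.46% in all). The groups did not overlap for 4 of the 32 genes, beside 7.81% of all genes. At an unadjusted p under 0.05, 10 genes passed, beside 21.7% of all genes, led by Cebpg (1.24-fold higher, adjusted p = 0.05) and Trib3 (1.62-fold higher, adjusted p = 0.0548), and DESeq2 called 3 genes higher (Atf4, Cebpg and Trib3), beside 5.29% of all genes higher and 4.14% lower. IR against IS also gave 0 calls by edgeR, where 0.0464% of all genes were called, 0.0232% higher and 0.0232% lower, with 10 genes at an unadjusted p under 0.05, beside 18.1% of all genes. DESeq2 called Slc1a4 higher (log2 0.34, adjusted p = 0.0272) and Slc3a2 lower (log2 -0.31, adjusted p = 0.0231) in IR, beside 2.12% of all genes higher and 2.55% lower. Without IS 2 edgeR called both of these and also Psat1 and Aldh18a1 higher, and calls over all genes went up to 8.85% as well.

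Other cell types' markers also differed between the groups, and single cultures stood out. The 5 endothelial markers summed to 79.5 to 112 CPM in control, 98.5 to 539.9 CPM in IS and 325 to 691 CPM in IR cultures, so IR and control did not overlap. The 8 macrophage and microglia markers summed to 406 to 589 CPM in control and 98.4 to 332 CPM in IR cultures. Fibroblast markers summed to 634 to 831 CPM in control and 271 to 653 CPM in IR cultures, with overlap. The third IR culture was the highest of its group for 20 of the 32 genes. It had the lowest macrophage, fibroblast (271 CPM) and epithelial (142 CPM) sums of that group. The second IS culture was the highest of its group for 15 genes and had the highest endothelial sum of that group. Among IR cultures the endothelial sum was 588 CPM in the third. It was highest in the fifth (691 CPM), which was the highest of its group for 2 genes. None of these markers was at 0 in all cultures of a group, but Aif1, C1qa, C1qb and Cx3cr1 stayed at or below 3.52 CPM. Most of the macrophage sum was Cd68. The part of these markers in the result was not tested. Without the third IR culture 6 of the 8 rises passed, beside 4.08% of all genes called higher, and the median fell to 0.12 on the log2 scale, Chac1 (adjusted p = 0.0701) and Shmt2 being lost. The median within-group variation of the 32 genes was 17.0% of the mean in IR cultures, beside 10.5% for genes of like level, and 27 of 32 genes varied more than those.

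**Figure D3:**
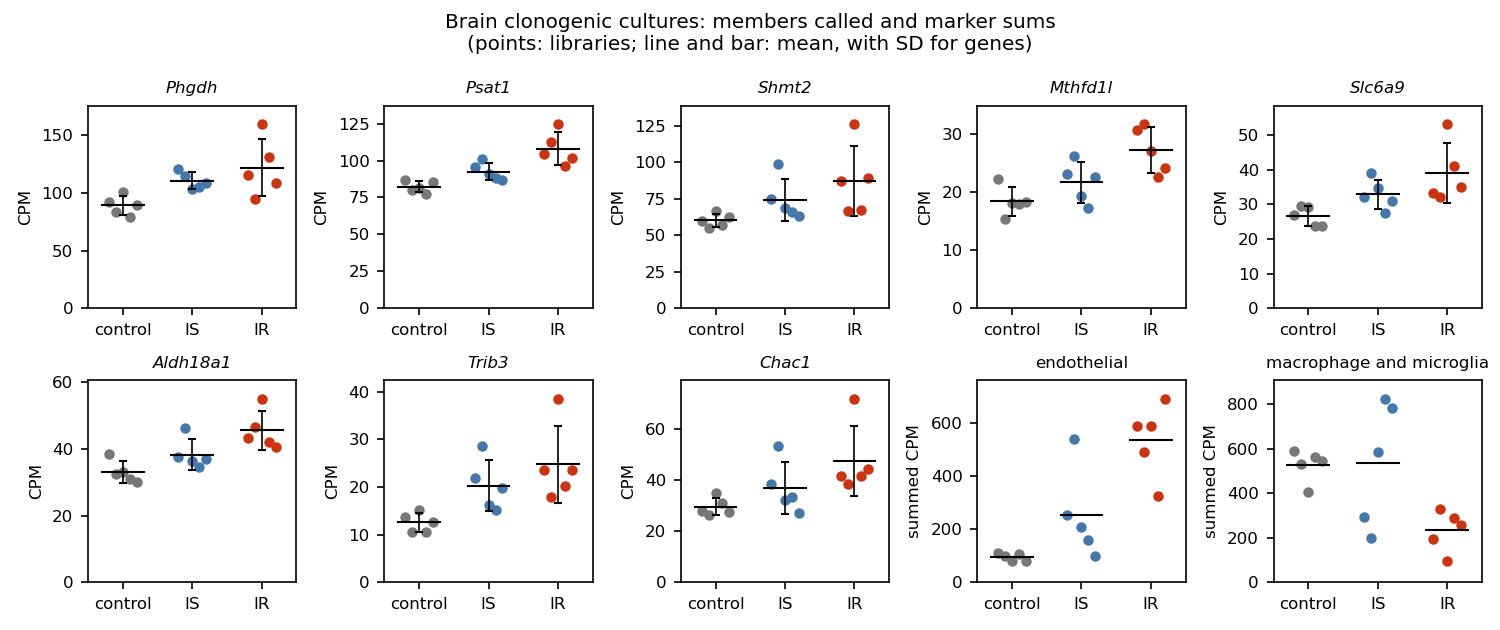
CPM of the 8 genes called higher in IR than control brain clonogenic cultures, and summed CPM of the endothelial and the macrophage and microglia markers, in the 5 control, 5 IS and 5 IR cultures. Points are cultures and lines means, with SD bars for genes. IR cultures lie above control for most genes and for the endothelial sum (325 to 691 against 79.5 to 112 CPM), and below control for the macrophage sum.

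From the list of 46 around the programme, 44 were tested in brain, and 2 rose and 3 fell in IR, a share of 11.4% that is near the 11.7% called over all genes. Gdf15, a secreted stress hormone, was at 387 ± 53 CPM in control, 253 ± 29 CPM in IS and 273 ± 43 CPM in IR cultures (SD, n = 5), 1.42-fold lower in IR (adjusted p = 0.0103) and 1.53-fold lower in IS (adjusted p = 0.00491). Eif2s1, the phosphorylated subunit of eIF2, was 1.23-fold lower in IR (adjusted p = 0.0181) and 1.2-fold lower in IS (adjusted p = 0.0498). Of the 2 further called genes, named after their values were seen, Atf3, a stress factor downstream of ATF4, was 1.84-fold lower in IR (adjusted p = 0.0478) and the mitochondrial folate enzyme Aldh1l2 was 1.54-fold higher (adjusted p = 0.0485). Got1 was 1.25-fold higher in IR (adjusted p = 0.0246). Glul, the glutamine synthetase, was 1.27-fold higher in IS (adjusted p = 0.0167). None of the 13 tRNA synthetase and export genes was called in IR, with 11 of positive sign.

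Levels in brain controls are set beside untreated 4T1 culture without a test, since the tables were scaled separately. Cell content differed too. Fibroblast markers summed to 634 to 831 CPM in brain control and 12.1 to 15.5 CPM in untreated culture. Pericyte and smooth muscle markers summed to 517 to 749 and at most 0.537 CPM, and epithelial markers to 185 to 256 and 3741 to 3747 CPM, in that order. The part of cell content in the levels below was not tested. Of 31 genes tested in both, 7 had a mean over 2-fold higher in brain control, 11 over 2-fold lower and 13 within that fold. The same count was not made over all genes, so these numbers show nothing particular to the programme. The genes given here were chosen after their values were seen. Atf5 was at 176 ± 24 CPM (SD, n = 5) in brain control and 30.2 ± 1.0 CPM (SD, n = 3) in untreated culture. Slc7a11 was at 155 ± 27 and 9.54 ± 0.80 CPM, Sesn2 at 72.4 ± 3.4 and 7.33 ± 1.4 CPM, Ppp1r15a at 82.8 ± 9.1 and 6.95 ± 0.53 CPM and Ddit3 at 35.3 ± 5.0 and 5.62 ± 1.0 CPM, in that order. All 5 read higher in brain control cultures, whereas Trib3 (12.6 and 12.8 CPM), Atf4 (214 and 245 CPM) and Stc2 (4.37 and 5.25 CPM) did not. Psat1, at 82.3 ± 3.7 and 503 ± 15 CPM, and Phgdh, at 89.2 ± 8.4 and 622 ± 9.7 CPM, were the other way round. Fgf21 was at 15.8 ± 2.8 CPM in brain control and had no count in untreated culture.

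In primary tumours none of 31 tested genes was called between IR and control, where edgeR called 0% of 12962 genes. At an unadjusted p under 0.05, 6 of the 31 genes and 991 of all genes (7.65%) passed. DESeq2 called 3 of the 31 (Slc7a11 and Ass1 higher, Cebpg lower), beside 0.741% of all genes higher and 0.216% lower. The 6 were Cebpg and Slc1a4, with lower, and Ass1, Slc7a11, Trib3 and Cth, with higher levels in IR. The median over the 31 genes was -0.07 on the log2 scale beside 0.01 over all genes. Fgf21 did not pass the filter and stayed at or below 2.43 CPM. None of the 43 tested genes around the programme was called.

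Cebpg was at 79.3, 81.2, 88.1 and 83.8 CPM in control and at 57.9, 66.3, 63.7, 57.6 and 60.1 CPM in IR tumours. Ass1 was at 29.1, 45.9, 33.7 and 45.9 CPM in control and at 67.3, 49.7, 78.5, 82.2 and 83.2 CPM in IR tumours. The groups did not overlap for these 2 genes, as for 2.41% of all genes (Cebpg log2 -0.44 ± 0.09 SE, Ass1 log2 0.90 ± 0.19 SE, adjusted p = 0.369 for both).

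Slc7a11 was at 11.1, 10.4, 11.9 and 7.4 CPM in control and at 26.4, 9.57, 57.9, 34.6 and 17.4 CPM in IR tumours, 4 of 5 IR tumours being above every control (log2 1.52 ± 0.45 SE, adjusted p = 0.494). Trib3 was at 23.4, 15.2, 17.7 and 19.5 CPM in control and at 28.0, 16.9, 29.9, 47.1 and 45.6 CPM in IR tumours (adjusted p = 0.546). Cth was at 4.8, 6.18, 4.63 and 5.7 CPM in control and at 9.19, 3.84, 13.0, 16.2 and 11.3 CPM in IR tumours (adjusted p = 0.562). In all 3 genes the second IR tumour was the lowest IR value and lay within or below control. Slc1a4 was at 23.3 to 33.8 CPM in control and at 14.9 to 29.2 CPM in IR tumours (adjusted p = 0.605).

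Atf4 read 276, 188, 218 and 272 CPM in control and 194, 189, 169, 246 and 279 CPM in IR tumours, and Atf5 read 170.3, 77.3, 98.8 and 154 CPM in control and 70.1, 81.0, 89.3, 98.2 and 120.3 CPM in IR tumours. Ddit3 read 16.0, 12.4, 13.3 and 22.0 CPM in control and 26.5, 12.6, 12.2, 17.9 and 34.1 CPM in IR tumours. All 3 factors overlapped between groups. Psat1 read 111, 93.1, 82.6 and 81.0 CPM in control and 43.1, 85.0, 65.7, 67.2 and 101 CPM in IR tumours, and Mthfd2 read 39.8, 29.2, 24.3 and 25.6 CPM in control and 13.0, 36.3, 20.5, 23.2 and 33.7 CPM in IR tumours. Asns read 44.7, 29.3, 34.1 and 30.9 CPM in control and 22.8, 32.9, 31.5, 38.0 and 40.9 CPM in IR tumours. The 6 serine and one-carbon genes all had a negative sign and none was called. Slc7a5 read 179, 125, 169 and 116 CPM in control and 215, 101, 198, 124 and 121 CPM in IR tumours, and Chac1 read 9.06, 5.94, 5.21 and 5.55 CPM in control and 4.01, 8.05, 2.81, 18.0 and 11.1 CPM in IR tumours.

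Markers of other tissue stood apart in single tumours. The skeletal muscle markers summed to 10573 CPM in IR tumour 4 and 1566 CPM in IR tumour 5 against 8.48 to 210.3 CPM in the other 7, and the lymphocyte markers to 231 CPM in the second control and 273 CPM in the second IR tumour. The fibroblast markers summed to 3487 to 6558 CPM in control and 6061 to 12036 CPM in IR tumours. Without IR tumours 4 and 5, a choice made after seeing the data, the log2 differences were -0.41 for Cebpg, 0.75 for Ass1, 1.62 for Slc7a11, 0.40 for Trib3 and 0.70 for Cth, and none of the 31 genes was called. Without the second control and second IR tumour, likewise chosen after seeing the data, they were -0.48 for Cebpg, 1.10 for Ass1, 1.75 for Slc7a11, 0.90 for Trib3 and 1.30 for Cth, again with no call.

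**Figure D4:**
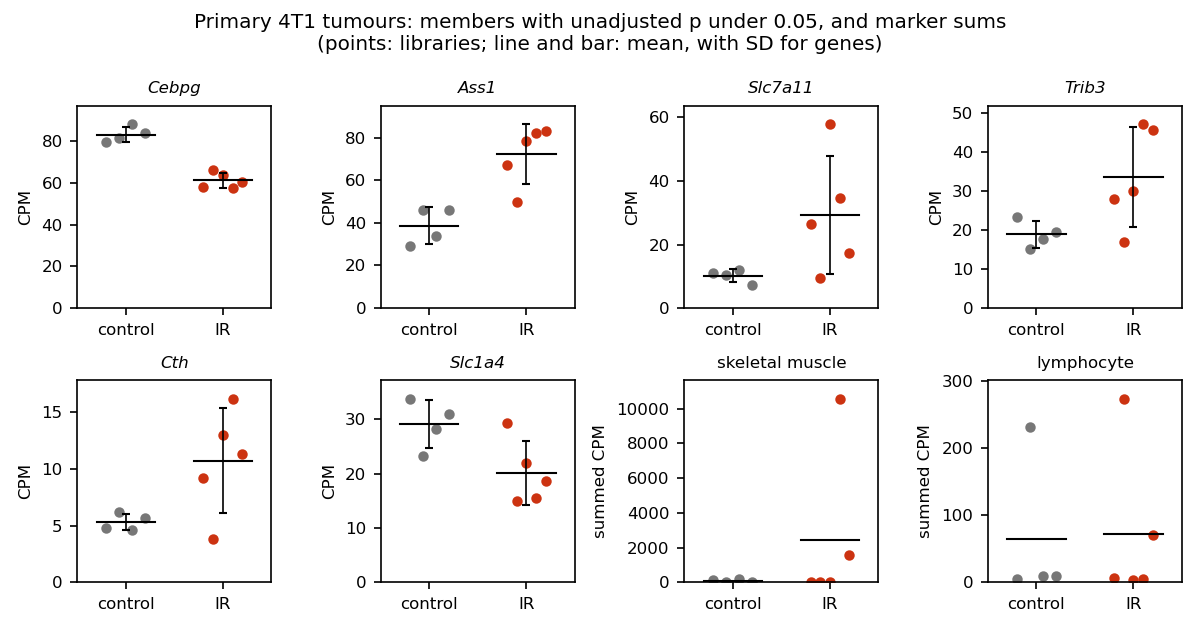
CPM of the 6 genes at an unadjusted p under 0.05 and summed CPM of the skeletal muscle and lymphocyte markers in 4 control and 5 IR primary tumours. Points are tumours and lines means, with SD bars for genes. Cebpg (57.6 to 66.3 against 79.3 to 88.1 CPM) and Ass1 do not overlap between groups, the other 4 genes do, and the muscle sum is high in 2 IR tumours.

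The miRNA experiment split the programme. By the titles, 7 of 31 tested genes were higher and 11 lower in the libraries titled miR-145a-3p than in those titled scramble, in an experiment where 28% of all 10751 genes were called higher, 28.7% lower and 56.7% in all. The number called is thus near the background, and the split by role is given as a description. Higher were Phgdh, Psat1 and Mthfd1l, the transporter Slc7a5, and Asns, Aldh18a1 and Ass1, all genes that make or import amino acids. Lower were the factors Ddit3, Nupr1 and Atf5, 5 of 6 tested feedback and secreted genes (Ppp1r15a, Trib3, Chac1, Sesn2 and Stc2) and the transporters Slc7a11, Slc3a2 and Slc6a9. The direction of each would turn if the library names rather than the titles were right. The 2 libraries titled scramble also differed more from each other than the 3 titled miR-145a-3p did. Their mean squared difference per gene, in units of counting noise, was 43.5, against 4.9 to 6.1 among those titled miR-145a-3p. Over the 31 genes the median within-group variation was 5.5% of the mean in those titled scramble and 4.04% in those titled miR-145a-3p.

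Among the factors Ddit3 was at 17.8 and 24.1 CPM in the libraries titled scramble and at 8.17, 6.94 and 6.42 CPM in those titled miR-145a-3p, a 2.92-fold difference (log2 -1.54 ± 0.16 SE, adjusted p = 0.000238). Nupr1 was at 48.9 and 59.3 CPM in those titled scramble and at 25.1, 20.4 and 21.3 CPM in those titled miR-145a-3p (2.43-fold, adjusted p = 0.000128). Atf5 was at 47.8 and 48.7 CPM in those titled scramble and at 43.5, 42.4 and 41.6 CPM in those titled miR-145a-3p (1.14-fold, adjusted p = 0.0317). Atf4, at 322 and 363 CPM against 319, 301 and 303 CPM, was not called (adjusted p = 0.0849), so the factor genes that differed most were not Atf4 itself. Cebpg was not called.

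In the feedback group Chac1 was at 25.4 and 23.4 CPM in libraries titled scramble and at 12.9, 12.8 and 13.9 CPM in those titled miR-145a-3p (1.85-fold lower, adjusted p = 0.000223). Trib3 was at 22.4 and 26.7 CPM against 14.5, 13.6 and 14.1 CPM (1.74-fold lower, adjusted p = 0.000486). Ppp1r15a was at 30.6 and 38.9 CPM against 20.7, 16.7 and 17.7 CPM (1.89-fold lower, adjusted p = 0.000717). The groups of these 3 genes did not overlap, which held for 73% of all genes. Sesn2 and Stc2 were 1.63-fold and 1.52-fold lower (adjusted p = 0.00394 for both), and Eif4ebp1 was not called.

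In synthesis Mthfd1l was at 97.7 and 86.7 CPM in libraries titled scramble and at 137, 140.3 and 141 CPM in those titled miR-145a-3p (1.51-fold higher, adjusted p = 0.000264). Psat1 was at 343 and 336 CPM against 446, 449.7 and 448 CPM (1.32-fold higher, adjusted p = 0.000659). Phgdh was at 429 and 377 CPM against 574, 549 and 559 CPM (1.39-fold higher, adjusted p = 0.000974). All 3 enzymes were higher in every library titled miR-145a-3p. Asns was at 116 and 115 CPM against 142, 144 and 148 CPM (1.25-fold higher, adjusted p = 0.00123). Ass1 was at 54.4 and 44.3 CPM against 64.1, 63.5 and 62.0 CPM (1.28-fold higher, adjusted p = 0.00984), and Aldh18a1 at 102 and 93.7 CPM against 118, 122 and 114 CPM (1.21-fold higher, adjusted p = 0.00645). Mthfd2, at 123 and 119.6 CPM against 128, 124 and 128 CPM, Shmt2 and Psph were not called.

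Of the transporters Slc7a5 was at 251 and 226 CPM in libraries titled scramble and at 283, 298 and 304 CPM in those titled miR-145a-3p (1.24-fold higher, adjusted p = 0.00525). Its partner chain Slc3a2 was at 295 and 275 CPM against 218, 215 and 214 CPM (1.32-fold lower, adjusted p = 0.000723). The 2 chains of the same exchanger therefore differed in opposite directions between these libraries. Slc7a11, another light chain that pairs with Slc3a2, was at 10.4 and 7.96 CPM against 4.53, 7.15 and 5.3 CPM (1.62-fold lower, adjusted p = 0.0246), and Slc6a9 was at 16.2 and 15.5 CPM against 11.9, 13.2 and 13.1 CPM (1.25-fold lower, adjusted p = 0.0295). With library totals in place of scaling factors the median of all genes shifted from -0.01 to 0.11 on the log2 scale, 11 genes were called higher and 8 lower, and the calls of Atf5, Slc7a11 and Slc6a9 were lost. Those 3 also lost their call when single libraries were left out (adjusted p up to 0.13, 0.0733 and 0.0893).

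**Figure D5:**
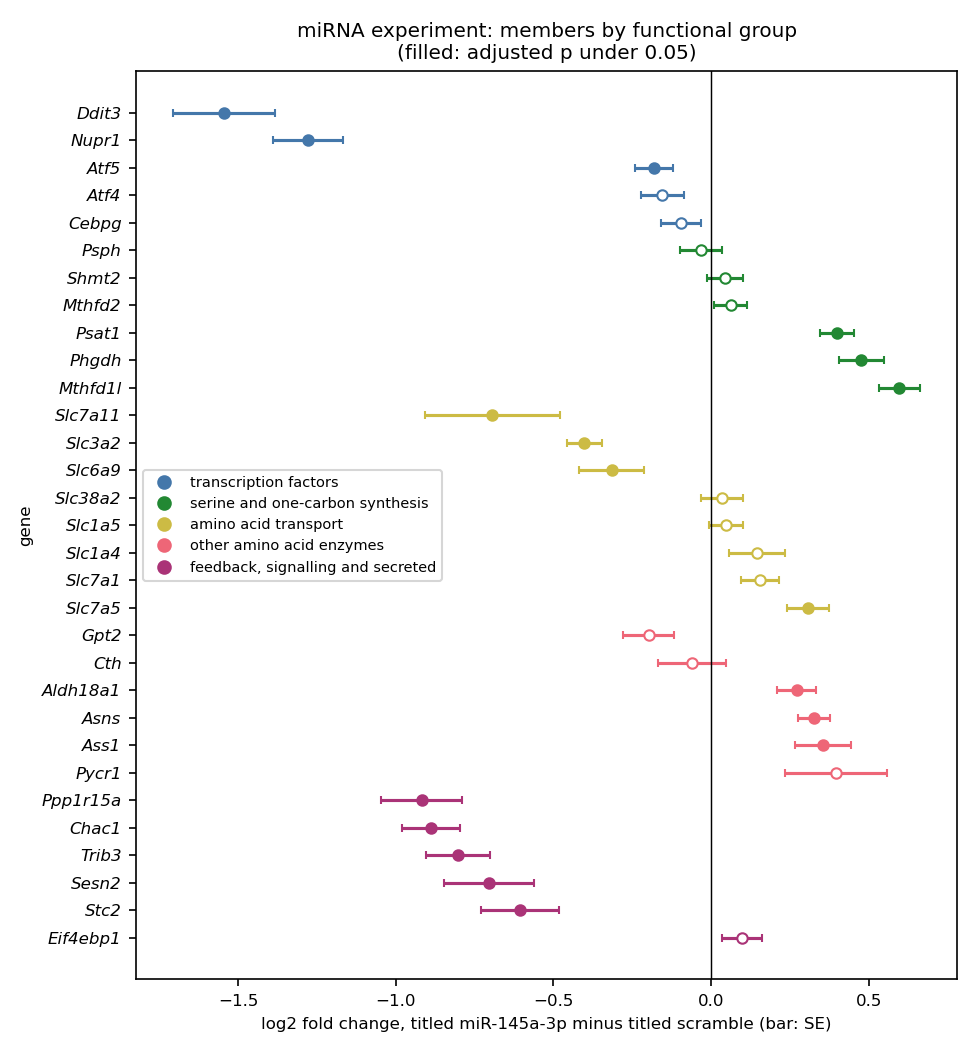
Log2 fold change with SE of the 31 tested genes between 3 libraries titled miR-145a-3p and 2 titled scramble, ordered within functional groups and filled where the adjusted p was under 0.05. Ddit3 (log2 -1.54) and Nupr1 lie farthest to the left and Mthfd1l (log2 0.60) farthest to the right, and the feedback genes lie left of 0 except Eif4ebp1.

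Of the 38 tested genes around the programme 15 were higher and 8 lower in libraries titled miR-145a-3p, a share of 60.5% that is near the 56.7% called over all genes. The tRNA synthetases and Xpot gave 8 higher and 1 lower of 13, where 28% of all genes were called higher and 28.7% lower, among them Mars1 (1.56-fold higher, adjusted p = 0.00012). Gadd45a, a growth arrest gene, and Atf3 were lower by 2.76-fold and 1.99-fold (adjusted p = 8.99e-05 and 9.17e-05).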

How the data were processed

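The deposited values are expected counts per gene. Per the titles of the deposited tables, the authors made them with RSEM for culture and brain and with salmon for tumours and miRNA, and the series text names an nf-core pipeline. Trimmomatic, STAR, featureCounts, DESeq2 and the builds GRCm38 and GRCm39 are named, without order, by the submitters' processing notes. The build behind a given table was not given in the sources used here. The culture table holds 3 further columns of per-library values that fit none of the samples and stayed out. Symbols were taken from the tumour table and named 52139 of 55487 identifiers of the other tables. Of 2 identifiers named Ddit3, the one with counts was used. Columns named IR in the culture and brain tables show the group but share their names with tumour libraries, so their numbers are names only and pair nothing.

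Expected counts were rounded, and genes reaching 3 CPM in at least 3 libraries were kept. Scaling used trimmed mean (TMM) factors. The main test was edgeR's quasi-likelihood F test (edgeR 4.0.16, R 4.3.3), fitted per experiment over every group without covariates. Benjamini-Hochberg adjustment ran over all genes tested, with calls at 0.05. The standard error (SE) is the absolute log2 fold change over the square root of F. The code was tested on simulated data. The 32 genes and the surrounding list were chosen with earlier results of these data known. Values per library are given for 11 chosen genes and for up to 3 called genes with the smallest adjusted p in each role and comparison, and up to 3 called genes of the surrounding list are named. Alternatives were DESeq2 1.42.0, other scaling, other filters, fits of 2 groups, a replicate block and leaving out each library.

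Tumour libraries with the same number in their titles had correlated deviations (0.117 to 0.759 over 4 pairs), above the 0.1 set for pairing. Of these libraries 3 of 8 correlated best with their own number, and libraries of unlike number reached 0.279 (control 3 with IR 4). The 0.759 was that of control 2 with IR 2, the tumours with the most lymphocyte markers. The values do not settle whether the numbers pair tumours. Control 4 carries the number 5 in its library name, and with IR 5 its correlation was 0.00875, so the pairing rests on the titles. The replicate block called 0 of the 31 tested genes there, as the fit without it did.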

Additional observations from a re-analysis of the deposited data

Results flagged for a closer look

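In 74 checks of single genes within brain and tumour groups, 4 values, from 3 libraries, stood apart from the rest of their group, where chance gives about 1 in 20. Aldh18a1 was at 46.4 CPM in the second IS brain culture and Atf4 at 279.5 CPM in the first. Chac1 was at 71.7 CPM and Trib3 at 38.6 CPM in the third IR brain culture.

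In 6 genes every IR library lay below untreated cells in culture and every IR brain culture above control, beside 0.899% of the 10348 genes tested in both. The difference between the experiments was not tested. The log2 differences in brain and culture were 0.15 and -0.32 for Atf4, 0.39 and -0.47 for Psat1, 0.57 and -0.27 for Mthfd1l, 0.46 and -0.19 for Aldh18a1, 0.98 and -0.43 for Trib3 and 0.69 and -0.31 for Chac1. Of these 12 values the call passed in brain for 5 (not Atf4) and in culture for 5 (not Chac1).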

How the results depend on the processing

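No called gene reversed its direction under any alternative. Of the called genes, 18 of 21 (culture IR against untreated), 10 of 11 (culture IS against untreated), 9 of 16 (culture IR against IS), 6 of 8 (brain IR against control) and 14 of 18 (miRNA) kept their call under every alternative. DESeq2 called 3 genes higher in brain IS, 1 higher and 1 lower in brain IR against IS, and 2 higher and 1 lower in tumours, where the main test called 0. For brain IS 1 gene was called higher with median-ratio, upper quartile or library total scaling or without the filter and 3 in the fit of 2 groups, which for brain IR also gave 1 lower. For culture IS 2 genes were called higher with upper quartile or library total scaling, Atf5 being added with library totals. For the miRNA experiment 11 were called higher with library totals or without the filter. Among all genes library totals gave 964 higher and 549 lower in culture IR, 1441 and 646 in culture IS and 3754 and 2097 in the miRNA experiment, against 726 and 751, 1086 and 1015, and 3008 and 3085. The causes were not tested.

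Leaving out single libraries gave 17 to 20 lower and 1 higher in culture IR, 9 to 10 lower and 1 higher in culture IS, 9 to 13 lower and 0 to 1 higher in culture IR against IS, 6 to 10 higher and 0 lower in brain IR, 0 to 1 higher in brain IS (1 without IS 4), 0 to 3 higher and 0 to 1 lower in brain IR against IS (3 and 1 without IS 2), 0 in tumours, and 7 to 8 higher and 8 to 10 lower in the miRNA experiment. Leaving out a scramble library leaves 1 in that group, which is assumed to vary like the libraries titled miR-145a-3p, so those counts (8 higher and 10 lower) say little on stability. With the replicate number as a block, fitted over libraries numbered by the labels, the counts were 1 higher and 10 lower in culture IS against untreated, 0 and 0 in brain IS against control, 0 and 0 in tumours and 6 and 8 in the miRNA experiment, where Slc7a5 also lost its call (adjusted p = 0.0801). No paired analysis was possible for the IR comparisons of culture and brain because the IR columns carry no label that numbers them. Same-numbered libraries did not deviate together in culture (correlations -0.183 to 0.0661), brain (-0.0899 to 0.107) or miRNA (-0.181 to -0.17), and 2 of 6, 1 of 10 and 0 of 4 correlated best with their own number. The 2 libraries titled scramble deviate from their own mean as mirror images, so the miRNA values cannot settle pairing. Stc2, Pycr1 and Sesn2 had few counts in culture, which limits the precision of their values.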
